A study of Homo sapiens with 18 samples.

Results

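The 3′ part of human 18S rRNA from A1637 to U1840 holds the P-site nucleotide G1639, the end of the head and helix 44 with the decoding adenosines A1824 and A1825. These 204 positions are a range set by position number, chosen with earlier results of these data known. They are part of the 686 positions amplified with primer set 1. The 3 overlapping primer sets of the series give 2137 position measurements per line. The last 25 of the 204, from G1816 on, adjoin the end of the amplified stretch, and A1818 and A1823 to A1825 are among these. The reference in the files is 1869 nucleotides long. The RefSeq table of GRCh38.p14 lists 5 genes of that length, RNA18SN1 to RNA18SN5, and values are not assigned to a gene copy here.

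Reactivity was measured with 2A3, an acylating reagent that enters living cells and marks the 2′-hydroxyl of flexible nucleotides. The cells were MDA-MB-231, an established human breast cancer line, as a scrambled control (SCR) and as 2 knockdowns labelled FBL1 and FBL2. Both are read here as knockdowns of fibrillarin, the methyltransferase named in the series title, and the amount of fibrillarin left was not measured by these libraries. Each line was treated for 15 min at 37 °C with 2A3 or with the solvent DMSO, which gives the background, and amplicons of the RNA were read on a nanopore sequencer. The 6 libraries of primer set 1 are used, 1 for each line and reagent, of 18 in the series. Median depths over the region were 214593 (SCR), 103793 (FBL1) and 191282 (FBL2) reads with 2A3, and 179676, 280341 and 242894 reads with DMSO. No value has a replicate, so no test between lines was possible, and an error after ± is the counting error of the reads at that position.

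In the ribosome, the small subunit reads the codon of the mRNA, and the head and the top of helix 44 form its decoding site. In the A site, A1824 and A1825 swing out of helix 44 and inspect the pairing of codon and anticodon. G1639, a 7-methylguanosine, and C1701 contact the P site. Helix 44 runs down the face of the subunit and makes bridges to the large subunit. Fibrillarin, guided by box C/D small nucleolar RNAs, places 2′-O-methyl groups on rRNA, and such a group removes the hydroxyl that 2A3 acylates.

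The sequences, read from the deposited files, show where the nucleotides discussed lie. In the head, capitals mark the listed modified nucleotides and C1701. In the start and the decoding end of helix 44, capitals mark nucleotides that rose in both knockdowns. In the tip, capitals mark nucleotides with a signal of 1% or more in SCR.
A1637 to C1701, P site and end of the head: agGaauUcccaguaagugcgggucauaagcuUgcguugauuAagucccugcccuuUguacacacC
G1702 to G1722, start of helix 44: gcccgucgcuacUaccGAuug
G1757 to C1785, tip of helix 44: ggggucgGCCCAcggcccuggcggAgCgc
U1812 to U1840, decoding end of helix 44: uagaggAaguaAAAgucguaacaagguuu
Helix 44 was taken as G1702 to C1833. A minimum free energy fold of these 132 deposited bases held 46 base pairs and a tip loop of 5 nucleotides, G1764 to A1768. In this fold A1818 was a single unpaired nucleotide across from the unpaired A1715. G1718 and A1719 lay in a small loop across from A1815, and A1823 to A1825 lay across from the unpaired G1709 and C1710. The fold is a prediction from sequence, not a measured structure.

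Signal, the 2A3 minus the DMSO reactivity, lay on few nucleotides. In SCR 13 of the 204 positions had at least 0.5% of reads, against 23 for FBL1 and 19 for FBL2. Within the region the bulged C1783 had the highest 2A3 reactivity of each line, 8.9% ± 0.0645 (SCR), 9.4% ± 0.0953 (FBL1) and 8.7% ± 0.0676 (FBL2), over a DMSO value of 0.1%. The tip loop came next. A1768 had 4.1% ± 0.0437 (SCR), 4.7% ± 0.0673 (FBL1) and 4.3% ± 0.0474 (FBL2). C1766 had 4.0% ± 0.0432, 4.0% ± 0.0621 and 3.6% ± 0.0434 in the same order. FBL1 was thus highest at A1768, by 0.6% of reads over SCR, and FBL2 lowest at C1766.

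The most reactive nucleotides were mostly those the fold leaves unpaired. The mean signal at the 40 unpaired nucleotides of helix 44 was 0.693% ± 0.00342 in SCR, against 0.0913% ± 0.00146 at the 92 paired ones. The FBL1 means were 0.968% ± 0.00527 and 0.161% ± 0.00197, and the FBL2 means 0.83% ± 0.00375 and 0.112% ± 0.0015. The tip loop, A1781 and C1783 carry most of the unpaired mean. Leaving out nucleotides with 1% or more in SCR, the other 33 unpaired ones averaged 0.0879% ± 0.00234 (SCR), 0.373% ± 0.00399 (FBL1) and 0.276% ± 0.00283 (FBL2), and 91 paired ones 0.0648% ± 0.00142, 0.131% ± 0.0019 and 0.0868% ± 0.00146. In SCR these means lay close together. The 33 were set by their SCR value and include 6 of the 7 nucleotides that rose in both knockdowns. Their median change was 0.1% of reads for FBL1 and for FBL2, below the 0.2% that rounding can give at a position. Of the nucleotides with 1% or more in SCR, U1721 alone was paired, with A1813, and its 2A3 reactivities were 2.7% (SCR), 3.0% (FBL1) and 2.5% (FBL2).

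**Figure D1:**
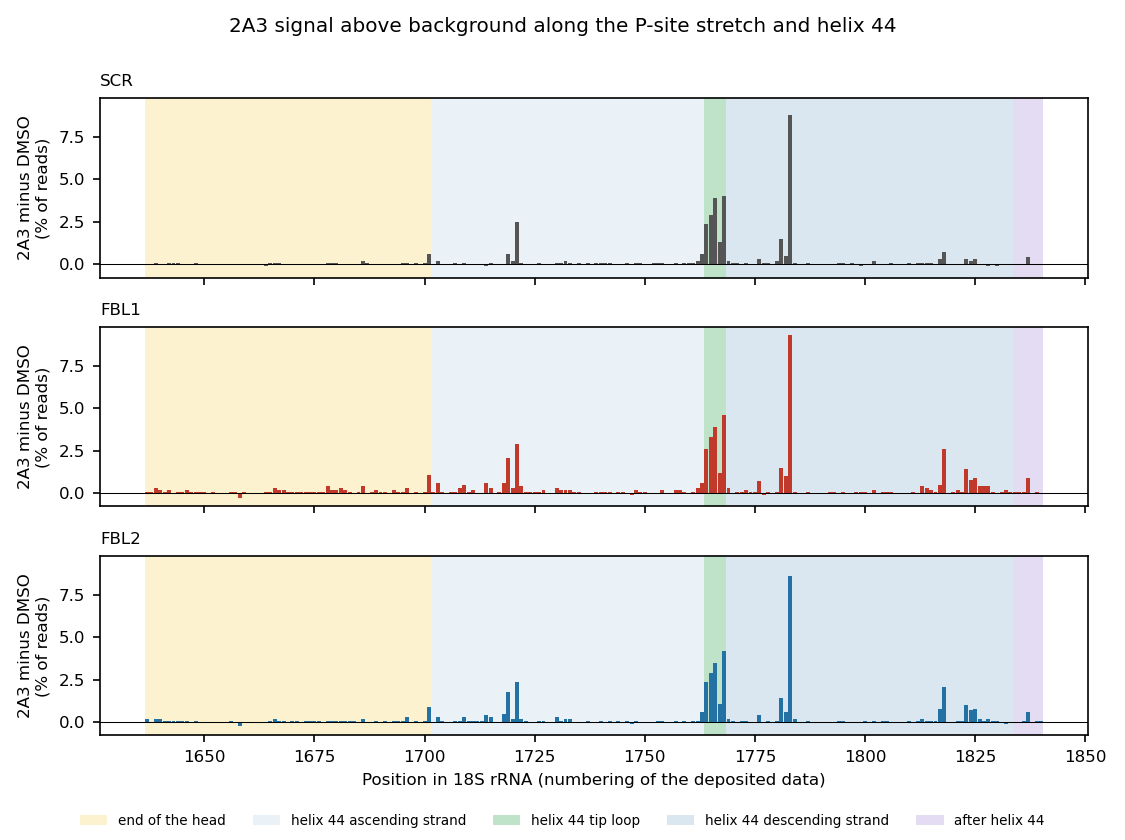
Signal (2A3 minus DMSO reactivity, % of reads, vertical axis) at each position of 18S rRNA from A1637 to U1840 (horizontal axis), 1 bar per position and 1 panel per line, with segments shaded. The tip loop and C1783 stand out at similar height in all 3 panels, while the bars at A1719, A1818 and A1823 to A1825 are taller in both knockdowns than in SCR.

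The comparison of each knockdown with SCR asked which nucleotides of the decoding region became more or less reactive. Averaged over the 204 positions, signal was 0.190% ± 0.00107 for SCR, 0.308% ± 0.00154 for FBL1 and 0.243% ± 0.00113 for FBL2, which is 1.62-fold and 1.28-fold SCR. In the other 482 positions of primer set 1 the ratios were 1.59 and 1.30. Leaving out the last 25 positions of the region gave 1.45 and 1.15, and those 25 positions by themselves gave 4.85 and 3.60. Their mean signal was 0.08% ± 0.00263 (SCR), 0.388% ± 0.00467 (FBL1) and 0.288% ± 0.00332 (FBL2), so the SCR divisor is below the rounding step of 0.1%. In SCR 17 of the 25 had equal rounded values with 2A3 and DMSO. Over all 204 positions FBL1 lay above SCR at 120 and below it at 17. The values are rounded, however, and only 25 and 1 of these changes exceed the 0.2% of reads that rounding can give. FBL2 lay above SCR at 71 and below it at 22, of which 10 and 1 exceed that bound. Mean DMSO reactivity was 0.143% (SCR), 0.141% (FBL1) and 0.143% (FBL2).

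Because the lines differ in overall signal, values were also scaled, so that the mean of the signals between the 90th and 98th percentiles of the whole stretch equals 1 unit. A unit was 0.958% of reads for SCR, 1.21% for FBL1 and 1.04% for FBL2. A position counted as risen or fallen when its scaled change had a size of 0.3 units or more with 1 sign for FBL1 and FBL2, and lay beyond its 95% counting interval each time. Both changes are taken from the same SCR library. By this rule 7 of the 204 positions rose, or 3.43%, against 2.62% of the whole stretch and 2.28% of the positions outside the region. The falls numbered 3, or 1.47%, against 1.31% and 1.24%. Both shares lie near their background. Without scaling all 7 rises passed, together with C1701 and C1828, which makes 4.41% against 4.96% of the whole stretch and 5.19% outside the region. No position of the region fell without scaling, against 0.292% and 0.415%.

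All 7 rises lay towards the decoding end of helix 44, where its first and last nucleotides face each other. Of the 7, 5 are adenosines, which make up 44 of the 204 positions. Outside the region 4 of 11 rises are adenosines, which make up 104 of the 482 positions there. In the fold 6 of the 7 are unpaired, as are 40 of the 132 nucleotides of helix 44. The largest rise was at A1818, with 2A3 reactivities of 0.8% ± 0.0193 (SCR), 2.7% ± 0.0511 (FBL1) and 2.2% ± 0.0340 (FBL2). Its DMSO value was 0.1% in each line, and its scaled changes were 1.41 and 1.28 units. Both knockdowns lay far above SCR, with a signal 3.71-fold (FBL1) and 3.00-fold (FBL2), which rounding could lower to 3.13 and 2.5.

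A1719, on the facing strand and outside the last 25 positions, rose by a similar factor. It had 0.6% ± 0.0167 (SCR), 2.1% ± 0.0450 (FBL1) and 1.8% ± 0.0307 (FBL2) with 2A3, and DMSO was listed at 0 in each line. Its signal was 3.5-fold and 3.00-fold SCR, and its scaled changes were 1.11 and 1.10 units.

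The 3 adenosines at the decoding site rose together. A1823, which precedes the decoding pair, had 0.4% ± 0.0137 (SCR), 1.5% ± 0.0381 (FBL1) and 1.1% ± 0.0241 (FBL2) over DMSO values of 0.1%. A1824 had 0.2% ± 0.00967, 0.8% ± 0.0278 and 0.7% ± 0.0192 in that order, and A1825 had 0.3% ± 0.0118, 0.9% ± 0.0295 and 0.8% ± 0.0205. DMSO was listed at 0 for A1824 and A1825 in each line, which means under 0.05%. SCR was the lowest line at each of these adenosines. Scaled changes (FBL1, FBL2) were 0.84 and 0.65 units at A1823, 0.45 and 0.46 at A1824, and 0.43 and 0.45 at A1825. The changes at the decoding pair were the smallest of the 7. With a scale factor from the 204 positions alone neither passed, at 0.28 units for A1824 and 0.17 for A1825. All 3 adenosines adjoin the stretch end, and the part of that position in their rise was not tested.

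U1714 and G1718 also rose, by 0.54 and 0.49 units on average, but their background moved as well. At U1714 the 2A3 reactivity was 0.4% ± 0.0136 (SCR), 0.9% ± 0.0294 (FBL1) and 0.7% ± 0.0191 (FBL2), and the DMSO reactivity 0.5%, 0.3% and 0.3%. G1718 had 0.6% ± 0.0167, 1.0% ± 0.0310 and 0.9% ± 0.0217 with 2A3, and 0.6%, 0.4% and 0.4% with DMSO. At both nucleotides SCR was thus lowest with 2A3 and highest with DMSO. Without DMSO subtraction neither passed, at 0.20 and 0.13 units. U1714 pairs with A1819 in the fold, next to A1818.

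**Figure D2:**
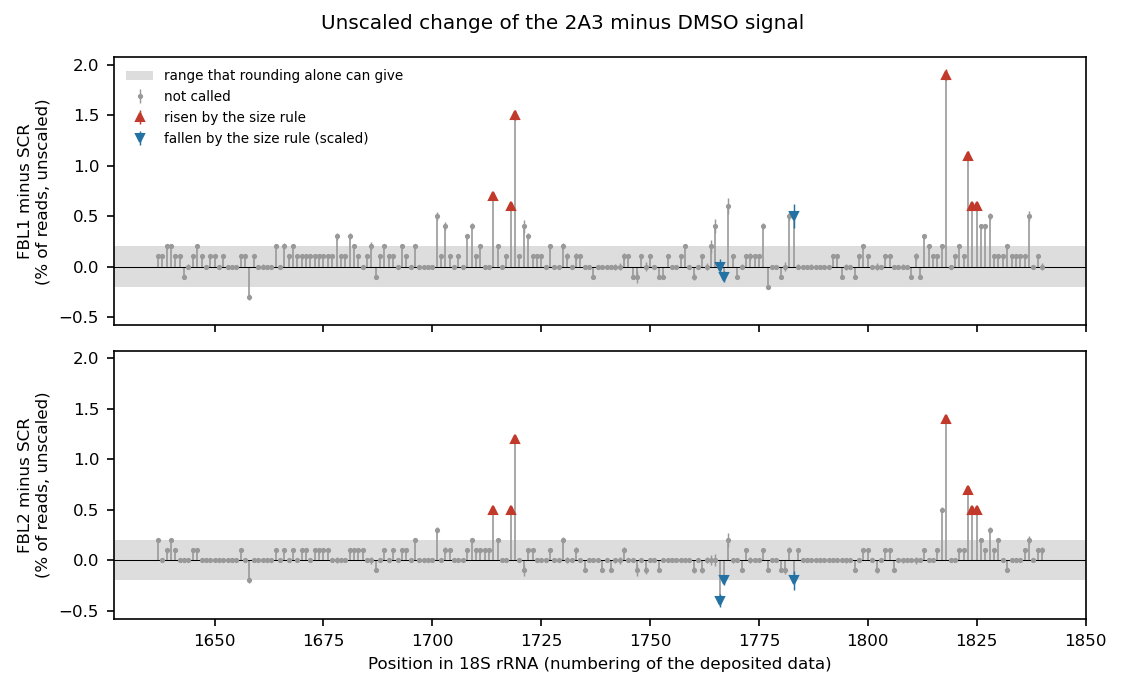
Knockdown minus SCR change of the unscaled signal (% of reads, vertical axis) by 18S rRNA position (horizontal axis), FBL1 above and FBL2 below. Triangles mark the 7 rises and 3 falls of the size rule on scaled values, bars are counting errors, and the grey band of 0.2% either way is what rounding alone can give. The rises form a group from U1714 to A1719 and another from A1818 to A1825, and the falls lie from C1766 to C1783.

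Several neighbours, chosen after their values were seen, had a higher rounded signal in both knockdowns without passing the scaled rule. Of those named here, only C1828 exceeded in both the 0.2% of reads that rounding can give. The change was 0.2% for FBL2 at G1709, G1826 and G1837, and for FBL1 at G1817. G1709, across from the decoding adenosines in the fold, had 2A3 reactivities of 0.3% (SCR), 0.7% (FBL1) and 0.5% (FBL2) over a DMSO value of 0.2%. G1826 had 0.1%, 0.5% and 0.3% over 0.1%, and G1817 had 0.3%, 0.5% and 0.8% with DMSO listed at 0. G1817 was thus highest in FBL2, whereas FBL1 had the highest 2A3 reactivity at each of the 7 rises, by 1 rounding step over FBL2 at G1718, A1824 and A1825. C1828 came closest to the threshold, with changes of 0.43 and 0.296 units, and its DMSO values were 0.5%, 0.3% and 0.4%. G1837, close to the stretch end, had 0.8%, 1.5% and 1.2% with 2A3, and its DMSO value was 0.4% in SCR and 0.6% in both knockdowns. The smallest rise that passed was A1825.

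Unscaled means over windows, with limits also chosen after the values were seen, describe helix 44 from its decoding end to its tip. Over the 13 positions G1816 to C1828 mean signal was 0.131% ± 0.00355 (SCR), 0.608% ± 0.00734 (FBL1) and 0.477% ± 0.00509 (FBL2), or 4.65-fold and 3.65-fold SCR. The 22 positions from C1701, the last of the head, to G1722 on the facing strand had 0.2% ± 0.00328, 0.477% ± 0.00532 and 0.364% ± 0.00372, or 2.39-fold and 1.82-fold. Over the 90 positions G1723 to U1812 between them it was 0.338% ± 0.00189, 0.387% ± 0.00257 and 0.330% ± 0.00192, or 1.14-fold and 0.977-fold. G1816 to C1828 holds 4 of the 7 rises and C1701 to G1722 the other 3, so their ratios restate these rises in part. In SCR 7 of the 13 and 12 of the 22 positions had equal rounded values with 2A3 and DMSO. The direction in the middle depends on scaling: the scaled means there were 0.353 (SCR), 0.319 (FBL1) and 0.317 (FBL2) units, so both knockdowns lay below SCR. In the other windows both lay above SCR on either scale, with scaled means of 0.137, 0.501 and 0.458 units over G1816 to C1828, and 0.209, 0.394 and 0.349 over C1701 to G1722. By base, adenosines of the region had mean signals of 0.191% ± 0.00202 (SCR), 0.402% ± 0.00336 (FBL1) and 0.314% ± 0.00236 (FBL2), or 2.11-fold and 1.64-fold. The ratios were 2.08 and 1.51 for uridines, 1.87 and 1.37 for guanosines and 1.23 and 1.04 for cytidines, so cytidines had the lowest. The cytidines include the very reactive C1765 to C1767 and C1783, and the adenosines include 5 of the 7 rises. At the other 482 positions of primer set 1 the ratios were 1.61 and 1.42 for adenosines and 1.81 and 1.41 for uridines. Guanosines there had 1.70 and 1.30, and cytidines 1.35 and 1.16.

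The falls lay among the most reactive nucleotides. Of the 204 positions, 8 had a signal of 1% or more in SCR: U1721, G1764 to A1768, A1781 and C1783. Their mean signal was 3.41% ± 0.0149 (SCR), 3.66% ± 0.0217 (FBL1) and 3.31% ± 0.0154 (FBL2), or 1.07-fold and 0.971-fold. At the 26 such positions outside the region the ratios were 1.31 and 1.19, and this difference was not tested. After division by the larger scale factors of the knockdowns, C1766, C1767 and C1783, all cytidines, fell by 0.78, 0.33 and 1.23 units on average.

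Unscaled, none of the 3 passed. C1766 was 1.00-fold SCR (FBL1) and 0.897-fold (FBL2), C1767 was 0.923-fold and 0.846-fold, and C1783 was 1.06-fold and 0.977-fold. Rounding could raise C1767 to 1.08 and 1.00, and C1783 for FBL2 to 1.00. The mean change at C1783 was above 0 without scaling, at 0.16 units. The falls are therefore stated on the scaled values only. With rounding error added to the counting errors, C1767 did not pass on scaled values either, which left 2 falls.

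**Figure D3:**
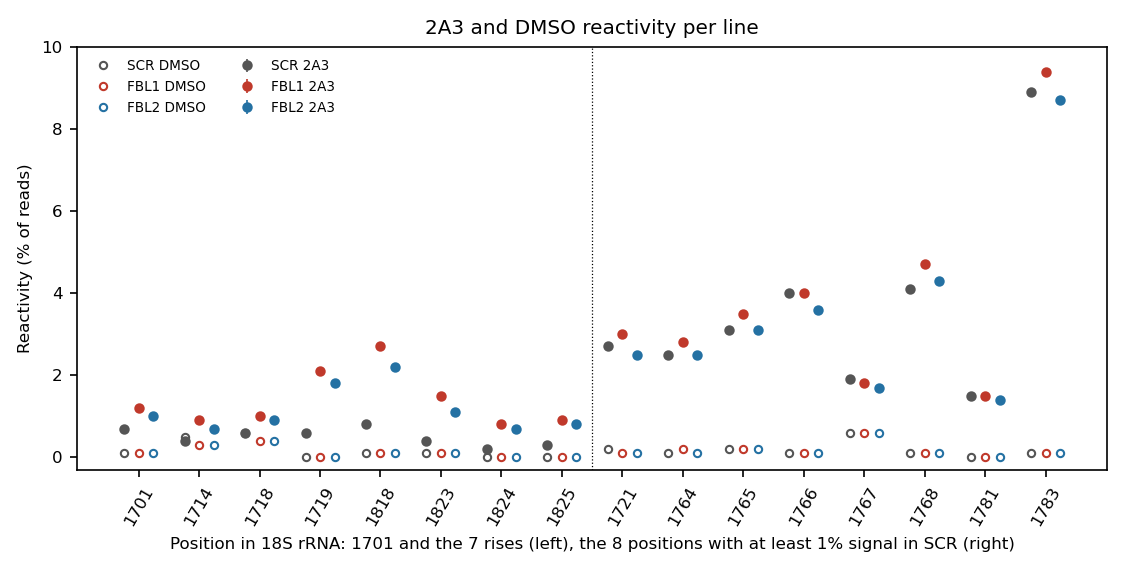
2A3 (filled) and DMSO (open) reactivity in % of reads (vertical axis) at named positions of 18S rRNA (horizontal axis), 1 point per library, with bars for the counting error that are smaller than the symbols. Left of the dotted line, C1701 and the 7 rises are higher with 2A3 in both knockdowns than in SCR. Right of it, the 8 most reactive positions of the region differ less in proportion, from 8.7% to 9.4% at C1783.

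The P-site stretch and the end of the head were close to background. Over A1637 to C1701 mean signal was 0.0354% ± 0.0015 (SCR), 0.125% ± 0.00207 (FBL1) and 0.0785% ± 0.00153 (FBL2), or 3.52-fold and 2.22-fold SCR. These ratios lie above those of C1701 to G1722, at far lower signal, and C1701 counts in both windows. FBL1 lay above SCR at 44 and FBL2 at 26 of the 65 positions, with 3 and 1 of these changes beyond rounding. Of these 65 positions, 46 had equal rounded values with 2A3 and DMSO for SCR, 14 for FBL1 and 26 for FBL2, and none passed the scaled rule. G1639 had 0.3% ± 0.0118 (SCR), 0.5% ± 0.0219 (FBL1) and 0.4% ± 0.0144 (FBL2) with 2A3, over 0.2% with DMSO. Its changes of 0.2% and 0.1% of reads do not exceed what rounding alone can give.

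C1701 was the most reactive nucleotide of the head stretch, with 0.7% ± 0.0181 (SCR), 1.2% ± 0.0340 (FBL1) and 1.0% ± 0.0228 (FBL2) over a DMSO value of 0.1%. Its signal was 1.83-fold and 1.5-fold SCR, which passed without scaling, while its scaled changes of 0.28 and 0.24 units did not pass. U1643 and U1692, both listed as pseudouridines, had the same 2A3 value in each line, 0.3% and 0.1%.

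Of the listed 2′-O-methylated nucleotides, 4 lie in the region. None passed the size rule, which 2.62% of the whole stretch passed as rises and 1.31% as falls, so a count of 0 among 4 sets these sites apart from no others. Cm1703, at the start of helix 44, had 2A3 reactivities of 0.4% ± 0.0136 (SCR), 1.1% ± 0.0325 (FBL1) and 0.7% ± 0.0191 (FBL2). Its DMSO reactivities were 0.2% ± 0.0105, 0.5% ± 0.0134 and 0.4% ± 0.0128. Both knockdowns were thus above SCR with and without the reagent, and the scaled changes after subtraction were 0.29 and 0.08 units. Cm1703 had the largest DMSO increase of the 204 positions for FBL1, 0.3% of reads. DMSO values lay within 0.1% of SCR at 198 (FBL1) and 200 (FBL2) of the 204 positions. Those that differed by 0.2% or more in both knockdowns were Cm1703 and G1837, which were higher, and U1714 and G1718, which were lower.

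Am1678 had 0.5% (SCR), 0.8% (FBL1) and 0.5% (FBL2) with 2A3 over 0.4% with DMSO in each line, so FBL1 alone lay above SCR. Um1668 had 0.1%, 0.3% and 0.2% over 0.1%, and Um1804, in the descending strand of helix 44, had 0.2%, 0.3% and 0.3% over 0.2%. These differences are within what rounding can give, except that of Am1678 for FBL1, which was 0.3% of reads. A1832, an N6-methyladenosine at the end of helix 44, had 0.2%, 0.4% and 0.1% over 0.2%, which is also within rounding. U1830, an mRNA contact in the P site, was at 0.1% or listed at 0 in each library. C1747 had the highest DMSO reactivity of the region, with 1.5% (SCR), 1.6% (FBL1) and 1.6% (FBL2), and its 2A3 value was 1.5% in each line, so no signal was left there after subtraction.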

How the data were processed

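Per the labels, 18S rRNA was probed in cells with 2A3 or DMSO and read as amplicons, and the submitters' processing notes name Bowtie2 and SAMtools without versions. Neither the sequence event counted nor the build is stated in the sources used here, nor whether the duplicate wells of the design were pooled. In the deposited files reactivity is a fraction, events per read, in steps of 0.1% of reads. The deposited coverage, named so per the file headers, is a signal of whole read depths and ran from 103153 to 280353 reads over the region. Counting errors do not cover PCR duplication, since the files do not tell copies of 1 molecule apart. The deposited difference, 2A3 minus DMSO in percent, was recomputed from the fractions, with negative values kept. Rounding can shift a reactivity by 0.05%, a difference by 0.1% and a change between lines by 0.2% of reads.

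Positions with at least 100 reads were kept, and scale factors came from all 686 positions of primer set 1, percentile bounds included. Helix 44 was folded with ViennaRNA 2.7.2. The tables were made with pandas 2.3.3 and numpy 2.4.6 under Python 3.11.15, and the plots with matplotlib 3.10.9. The size rule was tested on simulated data with 2 sets of overall gains, and with 1 of them the estimated scale factor by itself made unchanged, very reactive positions pass as changed. Named positions were the listed sites, the 10 highest signals in SCR, the 12 largest rises at most, all falls, runs of 3 calls within 10 positions and the 3 highest DMSO values in SCR. Members and lists were chosen with earlier results of these data known. Alternatives changed the scaling, threshold, subtraction, positions and reference line.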

Additional observations from a re-analysis of the deposited data

How the results depend on the processing

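No paired analysis was possible because the lines have 1 library per reagent. The main setting gave 7 rises and 3 falls. There were 5 rises and 7 falls when DMSO was not subtracted, and 9 and 0 with no scaling between lines. A scale factor for each base gave 6 and 9, and the scale factor from A1637 to U1840 also 6 and 9. Each of these kept 5 of the 7 main rises. At a threshold of 0.2 there were 9 and 7. A sliding mean of 3 positions gave 5 and 8, and kept 4 of the 7 main rises. Ranks in place of percentile bounds gave 7 and 8, an alternative chosen after seeing the data because many rounded values are tied. Leaving out the last 25 positions, from the scale factor too, gave 3 rises and 9 falls, with a unit of 0.674% of reads for SCR and 1.22% for FBL1. With the scale factor kept, a setting also added after seeing the data, it gave 3 rises and 3 falls. A threshold of 0.5 gave 3 rises and 2 falls, and U1714, G1718, A1824, A1825 and C1767 did not pass. FBL1 by itself gave 13 rises and 7 falls, and FBL2 by itself 8 and 4. Scaling on the 90th percentile gave 14 and 16, and box-plot scaling 60 and 17, where the threshold in SCR is 0.09% and 0.0484% of reads, under the rounding step of 0.1%. With FBL1 as the reference line, against SCR and FBL2, there were 1 rise and 0 falls, and with FBL2 as the reference 0 and 1. All 7 rises remained with no scaling and with median-ratio, 90th percentile, box-plot and rank scaling. With a scale factor for each base A1824 and A1825 did not pass, at 0.31 and 0.27 units on average. With the sliding mean U1714, A1823 and A1825 did not pass. The cause of these changes was not tested. C1783 turned to 0.157 units with no scaling. The ratio to SCR of the region's mean signal was 1.35 (FBL1) and 1.16 (FBL2) when DMSO was not subtracted, 1.45 and 1.15 without the last 25 positions, and 1.28 and 1.17 with scaled values. For the tip loop, the FBL1 ratio of 1.08 became 0.850 with scaled values, and for the descending strand the FBL2 ratio became 1.00 without the last 25 positions. A ratio of medians over the region could not be formed, since the SCR median is 0.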
